A study of Mus musculus with 6 samples.

Results

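The 33 genes described here code for enzymes of cholesterol synthesis and a cholesterol carrier (20 genes, called the sterol genes), enzymes of fatty acid synthesis and desaturation (8 genes, the fatty acid genes) and proteins that control the sterol regulatory element-binding proteins, or SREBPs (5 genes, the control genes). They were chosen by symbol from the known SREBP pathway, after earlier results of these data had been seen. All 33 were found among the 55487 genes in the files. All 33 were also among the 14604 genes that passed a filter on low counts and were tested. Stranded mRNA libraries were sequenced from chondrocytes, the cells of cartilage, of C57B/6 mouse knees, cultured in medium with 10% heat-inactivated fetal bovine serum. For 24 h the cells received extracellular vesicles, which are membrane-bound particles shed by cells, with vesicle protein at 10 µg/ml. The vesicles came from macrophages stimulated with LPS, a component of the bacterial cell wall, in 3 libraries (M-LPS-EV) and from macrophages without LPS in 3 libraries (M-EV). All 6 libraries thus come from vesicle-treated cells, and cells without vesicles were not analysed here. The labels give neither the source of the macrophages nor the age of the mice, and they do not say that replicates came from separate animals or cultures, so p-values measure the spread between these libraries, which may be technical.

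The SREBPs are transcription factors held in the membrane of the endoplasmic reticulum. When sterols are scarce, the escort protein SCAP carries them to the Golgi apparatus, where proteases release the active part. INSIG proteins hold SCAP back when sterols are plentiful. In mammals SREBP-2 acts mainly on genes of cholesterol synthesis, and the SREBP-1 forms act more on genes of fatty acid synthesis. Cartilage has no blood vessels of its own, and chondrocytes use cholesterol and fatty acids for membranes, signalling and matrix secretion.

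Expected counts per library summed to 20239626 to 25712667. Every fold change puts M-LPS-EV over M-EV, and a gene counted as called below an adjusted p of 0.05 in edgeR's quasi-likelihood test with Benjamini-Hochberg adjustment over all tested genes. Of the 33 genes, 16 were called lower in M-LPS-EV libraries, 1 was called higher and 16 were not called. Across all tested genes 31.6% were called, 15.2% lower and 16.4% higher. The direction of that majority depended on the scaling: 2397 genes were called higher and 2217 lower with TMM, 2809 and 1859 with total counts, and 2188 and 2494 with upper quartiles. The median log2 fold change was -0.086 over the 33 genes and 0.003 over all tested genes, and 27 of the 33 were negative, against 7201 of the 14604 tested. In 19 of the 33 genes every M-LPS-EV library had a lower CPM (counts scaled to a common library total) than every M-EV library, as in 20.6% of all tested genes.

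**Figure D1:**
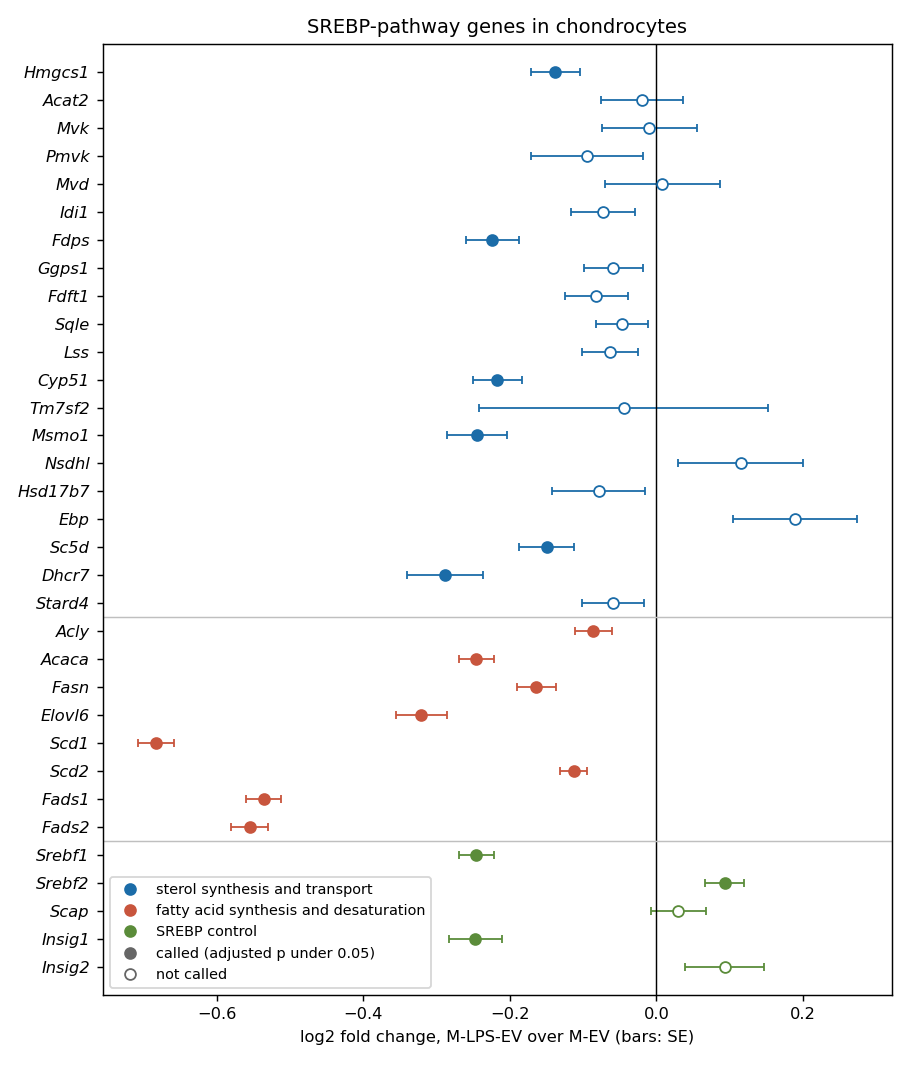
Log2 fold changes (M-LPS-EV over M-EV) of the 33 genes in their 3 classes, with bars of 1 standard error and filled points for called genes. All 8 fatty acid genes lie below 0, with Scd1 at -0.68 the lowest, while the sterol genes run between -0.29 and 0.19.

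The 8 fatty acid genes were all called lower in M-LPS-EV libraries, and in all 8 the groups did not overlap in CPM. Among all tested genes 20.6% were likewise lower without overlap. Their median log2 fold change was -0.28, and a gene was called lower in 15.2% of the background. Of the 8, 0 were higher at an unadjusted p under 0.05 in edgeR, and DESeq2 and limma-voom also called all 8 lower. Their levels per transcript length (TPM) summed to 1123, 1119 and 1101 in M-LPS-EV libraries, against 1348, 1361 and 1361 in M-EV libraries. The means were 1114 ± 12 and 1357 ± 7.32 TPM (SD, n = 3 each).

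The desaturases Scd1, Fads2 and Fads1 had the largest differences of all 33 genes. Scd1 codes for stearoyl-CoA desaturase 1, which puts the first double bond into saturated fatty acids. It had 232, 224 and 219.8 CPM in M-LPS-EV libraries, against 364, 362 and 357 CPM in M-EV libraries. The M-LPS-EV mean was 225.0 ± 5.96 CPM and the M-EV mean was 361 ± 3.53 CPM (SD, n = 3 each). The log2 fold change was -0.68 (SE 0.024 and adjusted p = 7.1e-18 by edgeR), a change of -37.7%. All 3 M-LPS-EV libraries lay far under the lowest M-EV library. Among all tested genes 311 had a log2 fold change as low or lower.

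Fads2 codes for the delta-6 desaturase, the first step from dietary essential fatty acids to long polyunsaturated ones. It had 213, 218 and 221 CPM in M-LPS-EV libraries, against 314, 329.6 and 316 CPM in M-EV libraries (log2 fold change -0.56, SE 0.025 and adjusted p = 1.4e-15 by edgeR). Fads1 codes for the delta-5 desaturase, a later step of the same path. It had 219.7, 229 and 228 CPM in M-LPS-EV libraries, against 319, 332 and 330.4 CPM in M-EV libraries (log2 fold change -0.54, SE 0.024 and adjusted p = 2.3e-15 by edgeR). The lowest M-EV library lay above the highest M-LPS-EV library by 92.6 CPM for Fads2 and by 89.9 CPM for Fads1. The changes were -31.9% for Fads2 and -31% for Fads1. In a test for a change beyond 1.2-fold (edgeR's glmTreat), Scd1, Fads1 and Fads2 alone of the 33 genes were called, and 2.58% of all tested genes were called lower by that test.

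Scd2 codes for the second main stearoyl-CoA desaturase of the mouse. It was the most abundant of the 33 genes per length, at a mean of 522 TPM in M-LPS-EV libraries and 569 TPM in M-EV libraries. It had 1611, 1554 and 1549 CPM in M-LPS-EV libraries, against 1701, 1708 and 1689.8 CPM in M-EV libraries. Its difference was small next to that of Scd1, with -0.11 on the log2 scale (SE 0.018 and adjusted p = 1.3e-05 by edgeR). Scd1 stood at 90.9 and 142 TPM in M-LPS-EV and M-EV libraries, so Scd2 made up most of the Scd transcripts.

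Elovl6, which lengthens palmitate to stearate, had 66.5, 64.0 and 65.9 CPM in M-LPS-EV libraries, against 82.4, 81.7 and 81.1 CPM in M-EV libraries (log2 fold change -0.32, SE 0.035 and adjusted p = 6.8e-08 by edgeR). Acaca, acetyl-CoA carboxylase 1, commits acetyl-CoA to fatty acid synthesis. It had 206, 208 and 202 CPM in M-LPS-EV libraries, against 242, 247 and 242 CPM in M-EV libraries (log2 fold change -0.25, SE 0.024 and adjusted p = 8.1e-09 by edgeR). For both genes the gap between the groups was larger than the range within either group. Of the 50-base windows of the main Acaca transcript, 55.4% also occurred in other genes, and the gene model Gm5182 held the most of them. Gm5182 had 394 and 521 counts summed over the M-LPS-EV and M-EV libraries and was not itself called. The sharing of reads between Acaca and other genes is thus uncertain.

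Fasn codes for fatty acid synthase, which builds palmitate. It had 244, 253 and 232 CPM in M-LPS-EV libraries, against 269.95, 277 and 270.5 CPM in M-EV libraries (log2 fold change -0.16, SE 0.027 and adjusted p = 2.6e-05 by edgeR). Acly, ATP-citrate lyase, makes the acetyl-CoA used by both pathways. It had the smallest of the 8 differences, at 206, 214.8 and 210.3 CPM in M-LPS-EV libraries, against 227, 225 and 218 CPM in M-EV libraries (log2 fold change -0.09, SE 0.025 and adjusted p = 0.011 by edgeR). The calls of Acly and Fasn did not hold when effective transcript length was taken into account (adjusted p = 0.14 and 0.3), and in TPM the Fasn groups overlapped. The effective length of Fasn was 6467, 6259 and 6086 bases in M-LPS-EV libraries, against 7029.7, 6897 and 5876 bases in M-EV libraries. Without Scd1, Fads1 and Fads2 the other 5 fatty acid genes had log2 fold changes between -0.32 and -0.09, with a median of -0.16.

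**Figure D2:**
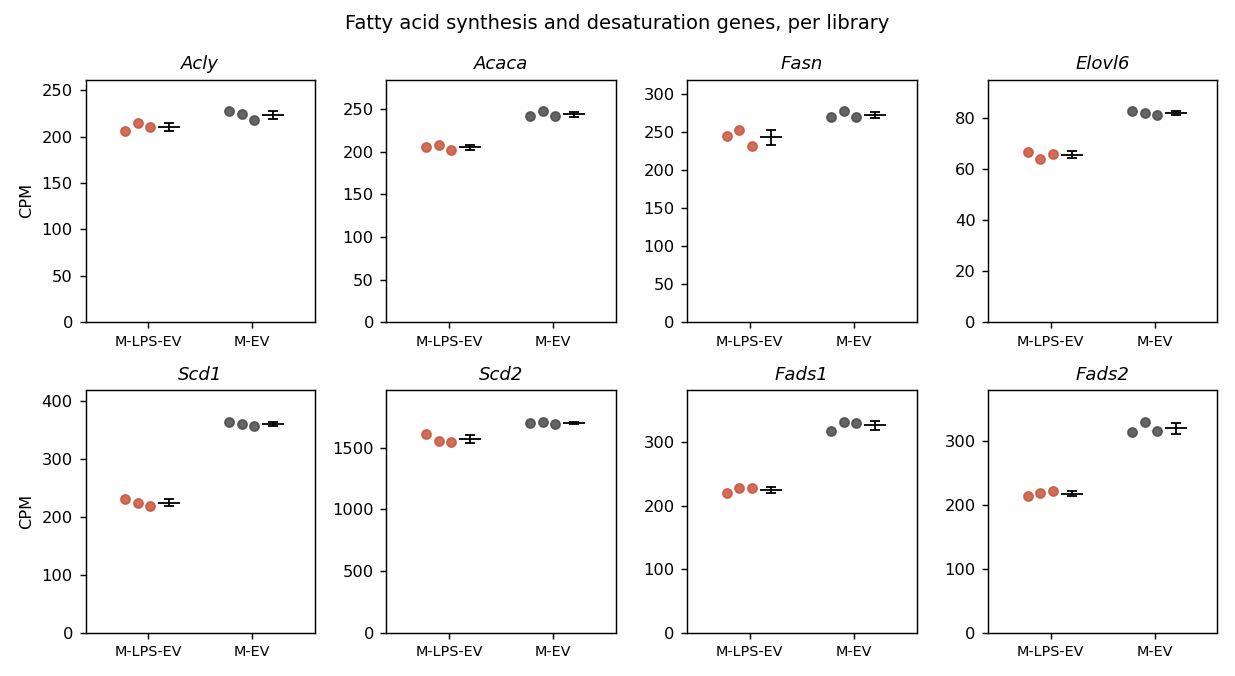
CPM of the 8 fatty acid genes in each library (points; bars are the mean and SD of 3 libraries), with an axis from 0 for each gene. In every gene the M-LPS-EV points lie under the M-EV points, and the gap is widest for Scd1, Fads1 and Fads2.

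The 3 desaturase genes with the largest differences lie on chromosome 19 in the mm10 build (GENCODE M21 annotation). Fads3, Fads2 and Fads1 follow each other at 10041569 to 10060110, 10062765 to 10101746 (minus strand) and 10182888 to 10196877. The Scd genes lie farther along, with Scd3 at 44203269 to 44244016, Scd2 at 44293674 to 44306864, Scd4 at 44333092 to 44346743 and Scd1 at 44394455 to 44407879 (minus strand). Fads3, whose values were seen before it was picked, averaged 256 ± 3.27 CPM in M-LPS-EV libraries and 245 ± 4.51 CPM in M-EV libraries (SD, n = 3 each; log2 fold change 0.06 and adjusted p = 0.043 by edgeR). Its sign was opposite to those of Fads2 and Fads1, although 14 of 18 alternatives left it uncalled. Scd4 averaged 1.17 and 1.01 CPM in M-LPS-EV and M-EV libraries and was not called, and Scd3, with 11 and 7 counts summed over the M-LPS-EV and M-EV libraries, was not tested. Scd1, Scd2, Fads1 and Fads2 shared at most 4.66% of their 50-base windows with other genes.

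The sterol genes split into 6 that were called lower in M-LPS-EV libraries and 14 that were not called. Their median was -0.07 on the log2 scale. The share called lower can be read against the 15.2% of all tested genes. Of these 20 genes, 0 were called higher by edgeR's quasi-likelihood test, with 1 at an unadjusted p under 0.05 (0 called by DESeq2 and 0 by limma-voom). Of the 20, 17 had a negative log2 fold change. In 9 of the 20, called or not, every M-LPS-EV library had a lower CPM than every M-EV library, against 20.6% of all tested genes. In 1, Ebp, every M-LPS-EV library had a higher CPM, against 3147 of the 14604 tested genes. Their summed level was 705, 682 and 678 TPM in M-LPS-EV libraries, against 755, 777 and 768 TPM in M-EV libraries.

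Of the early steps, Hmgcs1, the synthase that makes HMG-CoA, had 115, 108 and 109.7 CPM in M-LPS-EV libraries, against 119, 121 and 125 CPM in M-EV libraries (log2 fold change -0.14, SE 0.033 and adjusted p = 0.002 by edgeR). Its groups did not overlap but were only 4.03 CPM apart, and the call was lost with effective length as an offset (adjusted p = 0.053). Hmgcs1 is also partly covered on the opposite strand by Gm48342, which held 12 and 32 counts in all M-LPS-EV and M-EV libraries. Acat2, Mvk, Pmvk, Mvd and Idi1, members of the steps between acetyl-CoA and the isoprenoid units, had log2 fold changes between -0.10 and 0.01 and were not called. Of the Acat2 windows 45.9% also occurred in other genes, and its neighbour Acat3 held the most of them. Acat3 had 42 and 30 counts over the M-LPS-EV and M-EV libraries, and the count of Acat2 is uncertain.

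Fdps, which makes farnesyl pyrophosphate, had 72.0, 71.9 and 68.9 CPM in M-LPS-EV libraries, against 82.4, 81.6 and 84.8 CPM in M-EV libraries (log2 fold change -0.22, SE 0.036 and adjusted p = 2e-05 by edgeR). The highest M-LPS-EV library lay 9.55 CPM below the lowest M-EV library. Of the windows of the main Fdps transcript 82% also occurred in other genes, and the overlapping gene model Gm43738 held the most of them. Gm43738 had 4 and 0 counts over the M-LPS-EV and M-EV libraries. The sharing of reads between Fdps and other genes is likewise uncertain. Ggps1, which makes the longer geranylgeranyl pyrophosphate, and Fdft1, Sqle and Lss, which turn farnesyl pyrophosphate into the first sterol, had log2 fold changes between -0.08 and -0.05 and were not called. Sqle, the oxygenase of squalene, averaged 94.2 ± 3.79 CPM in M-LPS-EV libraries and 97.3 ± 1.27 CPM in M-EV libraries (SD, n = 3 each).

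Among the steps from lanosterol to cholesterol, 4 genes were called lower. Cyp51, the lanosterol demethylase, had 95.7, 92.4 and 95.1 CPM in M-LPS-EV libraries, against 106, 113 and 109.9 CPM in M-EV libraries (log2 fold change -0.22, SE 0.033 and adjusted p = 1.2e-05 by edgeR). Msmo1, the methylsterol oxidase that follows, had 79.3, 70.9 and 71.6 CPM in M-LPS-EV libraries, against 87.8, 90.1 and 84.8 CPM in M-EV libraries (log2 fold change -0.24, SE 0.041 and adjusted p = 3.7e-05 by edgeR). Replicate 1 of the M-LPS-EV group was the highest of its group in Msmo1, yet below all M-EV libraries.

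Sc5d, the sterol C5-desaturase, had 58.8, 58.9 and 60.4 CPM in M-LPS-EV libraries, against 67.1, 65.3 and 65.3 CPM in M-EV libraries (log2 fold change -0.15, SE 0.037 and adjusted p = 0.0024 by edgeR). Dhcr7, the reductase of 7-dehydrocholesterol, had 23.7, 25.9 and 23.6 CPM in M-LPS-EV libraries, against 29.5, 30.2 and 29.9 CPM in M-EV libraries. Dhcr7 was the sterol gene with the largest difference (log2 fold change -0.29, SE 0.052 and adjusted p = 0.0001 by edgeR). The groups of both genes were apart. Tm7sf2, Nsdhl, Hsd17b7 and Ebp, which carry out other steps after lanosterol, and Stard4, a carrier of cholesterol in the cytosol, were not called, with log2 fold changes between -0.08 and 0.19.

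Ebp, the sterol isomerase, had 16.3, 15.4 and 15.4 CPM in M-LPS-EV libraries, against 15.1, 14.6 and 11.5 CPM in M-EV libraries. Replicate 3 of the M-EV group was low, while the other 5 libraries lay close together. The log2 fold change of 0.19 had an SE of 0.084 and an edgeR adjusted p of 0.092, and it rested on single M-EV libraries. Without the low M-EV replicate 3 it was 0.077 with an adjusted p of 0.53 in edgeR, and without M-EV replicate 1 it was 0.27 with an adjusted p of 0.034. Tm7sf2 had the fewest counts of the 33 genes, with 135 counts over the M-LPS-EV libraries and 149 over the M-EV libraries, and its SE of 0.197 allows no statement on a difference of the size seen in the other sterol genes.

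The 5 control genes did not move together: Srebf1 and Insig1 were called lower, Srebf2 was called higher, and Scap and Insig2 were not called. Against the background, 16.4% of tested genes were called higher and 15.2% lower. Srebf1, which codes for the SREBP-1 forms, had 235, 229.6 and 224 CPM in M-LPS-EV libraries, against 276, 267 and 275 CPM in M-EV libraries (log2 fold change -0.25, SE 0.024 and adjusted p = 1.2e-08 by edgeR). Srebf2, which codes for SREBP-2, had 179, 175 and 177 CPM in M-LPS-EV libraries, against 168, 161 and 169 CPM in M-EV libraries (log2 fold change 0.09, SE 0.027 and adjusted p = 0.0092 by edgeR). The groups did not overlap for either gene, and the difference for Srebf2 was the smaller. The Srebf2 call was lost with the length offset (log2 fold change 0.05, adjusted p = 0.25) and without M-EV replicate 2 (0.07, adjusted p = 0.087).

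Insig1, the retention protein whose transcript is itself a target of the SREBPs, had 75.2, 77.0 and 75.1 CPM in M-LPS-EV libraries, against 93.0, 88.1 and 88.7 CPM in M-EV libraries (log2 fold change -0.25, SE 0.036 and adjusted p = 4.6e-06 by edgeR). All M-LPS-EV libraries lay below all M-EV libraries. Insig2, its paralog, averaged 29.9 ± 1.73 CPM in M-LPS-EV libraries and 28.1 ± 1.47 CPM in M-EV libraries (SD, n = 3 each; log2 fold change 0.09 and adjusted p = 0.21 by edgeR). Scap, the escort protein, stood at 0.03 on the log2 scale (SE 0.038 and adjusted p = 0.6 by edgeR), which turned to -0.06 with the length offset.

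**Figure D3:**
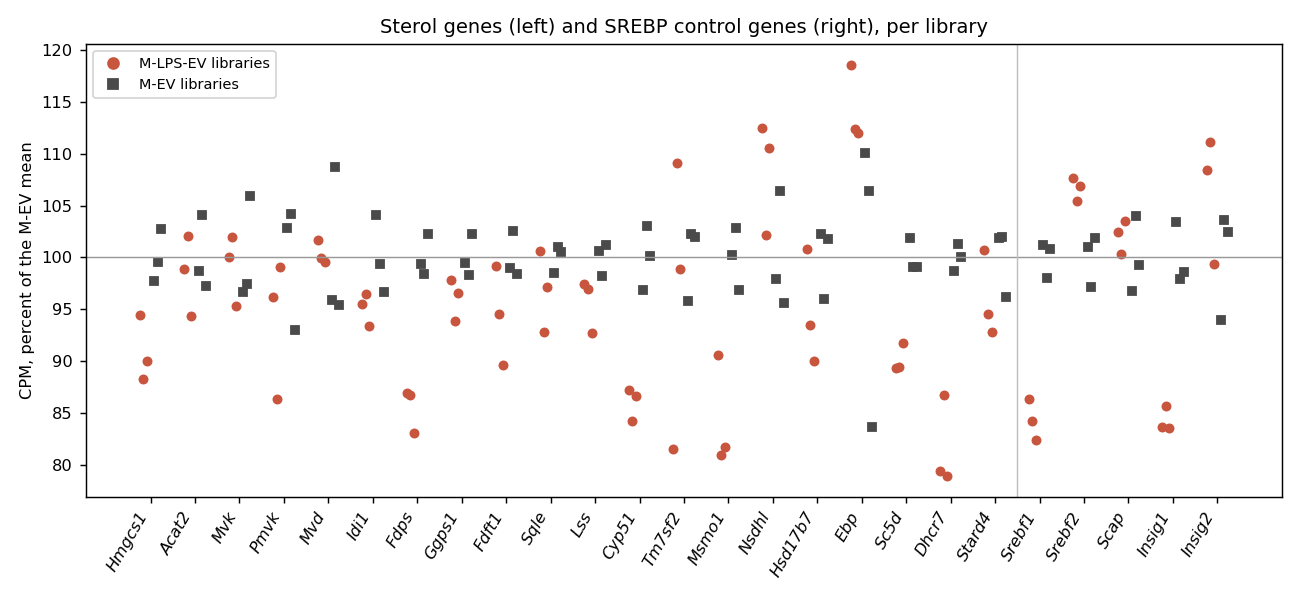
CPM of the sterol and control genes in each library as a percent of the M-EV mean (points). The 6 sterol genes called lower lie under the M-EV libraries in all 3 M-LPS-EV libraries, and Srebf1 and Insig1 lie on the opposite side from Srebf2.

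Mammalian Srebf1 has alternative first exons that give SREBP-1a and SREBP-1c. The main transcript in these libraries, Srebf1-201, starts at position 60220604 of chromosome 11 (mm10, minus strand) and is 4299 bases long. Its level was 72.7, 71.3 and 70.7 TPM in M-LPS-EV libraries, against 76.0, 79.3 and 82.0 TPM in M-EV libraries. Srebf1-207 starts at 60210465, within the gene, and is 3177 bases long. It had 27.9, 23.2 and 20.9 TPM in M-LPS-EV libraries, against 34.9, 31.6 and 33.6 TPM in M-EV libraries. Both transcripts were lower in every M-LPS-EV library than in every M-EV library. Srebf1-201 made up 57.9% ± 0.573 of the gene's TPM in M-LPS-EV libraries and 52.6% ± 3.43 in M-EV libraries (SD, n = 3 each). The difference of 5.33 percentage points had a two-sided exact permutation p of 0.10, the smallest that 3 libraries against 3 allow. The shares of the main transcripts of Insig1, Insig2 and Acaca differed by 0.01, -1.74 and -2.38 points, with exact permutation p of 1.00, 0.90 and 0.40. RSEM shares reads between transcripts, and its error was not part of these tests.

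**Figure D4:**
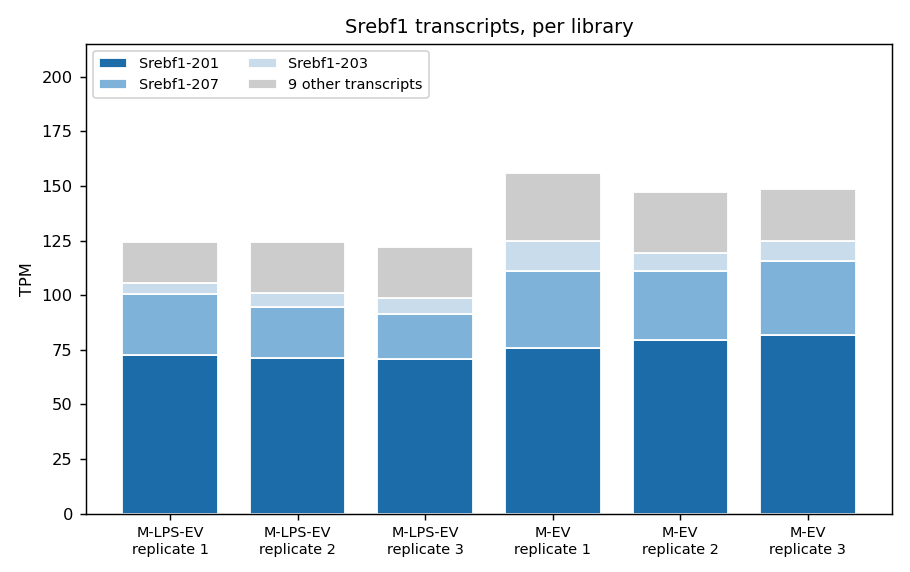
Stacked bars of the TPM of Srebf1 transcripts, 1 bar for each library, with Srebf1-201 at the base and 9 minor transcripts pooled at the top. The Srebf1-201 part ends at 70.7 to 72.7 TPM in M-LPS-EV libraries and at 76.0 to 82.0 TPM in M-EV libraries, and the whole bars of M-LPS-EV libraries are all shorter.

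SREBPs bind the sterol regulatory element near gene starts, often beside CCAAT boxes bound by the factor NF-Y. RefSeq (GRCm38.p6) held promoter windows, 250 bases before to 50 bases after the start, for 26 of the 33 genes. Fdps, Fdft1, Sqle, Stard4, Scd1, Scd2 and Fads1 were not used here. The letters TCACNCCAC, one spelling of the element, were searched on both strands and found in 1 of the 26 members, in any of its windows, against 1.44% of all genes with a window. CCAAT was found in 21 of the 26 and in 41.1% of all genes, and GGGCGG, the GC box, in 21 of the 26 and in 38.2% of all genes. Among the fatty acid genes with a window, Acly and Fasn held CCAAT, and Acaca, Elovl6 and Fads2 did not. Among the sterol and control genes with a window, Acat2 and Scap alone lacked CCAAT. The motifs were searched separately and may overlap. The windows of 4 called members are printed to show these letters, and the members were picked because they hold a match. Hmgcs1 was taken for TCACNCCAC, and the others for CCAAT, by the size of their log2 fold change. Called members whose window holds neither, Fads2, Elovl6 and Acaca, were thus passed over. Capitals mark TCACNCCAC and CCAAT matches on either strand, and each window is read 5′ to 3′ in the direction of the gene.
Hmgcs1 (chr13:119690101-119690400, plus strand): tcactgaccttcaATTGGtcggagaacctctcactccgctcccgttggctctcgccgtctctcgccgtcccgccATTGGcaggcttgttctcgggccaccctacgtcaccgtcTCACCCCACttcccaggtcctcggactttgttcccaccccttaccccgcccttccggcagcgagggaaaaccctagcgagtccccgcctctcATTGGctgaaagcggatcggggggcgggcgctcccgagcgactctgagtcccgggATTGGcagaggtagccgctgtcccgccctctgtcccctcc
Dhcr7 (chr7:143829964-143830263, plus strand): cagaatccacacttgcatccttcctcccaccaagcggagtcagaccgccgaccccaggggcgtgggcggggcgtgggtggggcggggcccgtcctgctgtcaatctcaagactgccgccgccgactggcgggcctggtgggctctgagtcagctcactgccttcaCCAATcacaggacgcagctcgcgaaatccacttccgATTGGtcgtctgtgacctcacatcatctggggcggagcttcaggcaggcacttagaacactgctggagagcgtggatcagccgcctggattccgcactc
Insig1 (chr5:28071162-28071461, plus strand): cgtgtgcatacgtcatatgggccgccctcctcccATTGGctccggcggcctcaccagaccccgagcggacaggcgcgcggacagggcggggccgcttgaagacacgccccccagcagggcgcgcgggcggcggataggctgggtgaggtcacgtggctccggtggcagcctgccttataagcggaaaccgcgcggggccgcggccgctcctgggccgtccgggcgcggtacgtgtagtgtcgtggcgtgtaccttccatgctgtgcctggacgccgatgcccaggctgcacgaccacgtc
Srebf1 (chr11:60210422-60210721, minus strand): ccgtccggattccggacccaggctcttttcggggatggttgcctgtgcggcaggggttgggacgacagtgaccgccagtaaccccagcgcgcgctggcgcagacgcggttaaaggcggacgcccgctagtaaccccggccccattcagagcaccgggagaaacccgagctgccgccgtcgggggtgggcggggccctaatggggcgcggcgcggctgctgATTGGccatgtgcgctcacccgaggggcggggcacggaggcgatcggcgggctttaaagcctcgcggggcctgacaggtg
Hmgcs1 holds the TCACNCCAC match 137 bases before the start and 4 CCAAT matches. The printed Dhcr7 window holds 2 CCAAT matches, and those of Insig1 and Srebf1 hold 1 each. Dhcr7 and Srebf1 have 3 windows each, for different starts, and the ones printed were picked because they hold a match (for Srebf1, the matching window with the lower coordinate). The other Dhcr7 windows hold 0 CCAAT matches, and of the other Srebf1 windows the one near the start of Srebf1-201 holds 0 and the one farther upstream holds 1. The printed Srebf1 window lies at the start of Srebf1-207, the transcript described above, and not at that of Srebf1-201. A match says only that the letters are there.

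Genes of connected paths gave a mixed picture. Among 21 other genes of sterol uptake, SREBP processing and sterol enzyme degradation, 2 were called higher and 6 lower, with a median log2 fold change of -0.03. Rnf145, an E3 ubiquitin ligase of the endoplasmic reticulum that acts on SCAP in mouse liver, averaged 60.8 ± 1.41 CPM in M-LPS-EV libraries and 47.2 ± 0.505 CPM in M-EV libraries (SD, n = 3 each; log2 fold change 0.37 and adjusted p = 3.1e-08 by edgeR). Npc2, which hands cholesterol on within lysosomes, averaged 121 ± 2.00 and 101 ± 1.35 CPM in M-LPS-EV and M-EV libraries (log2 fold change 0.25 and adjusted p = 4.1e-07 by edgeR). Both rose, while Paqr3, a Golgi protein that anchors SCAP and SREBP, fell (log2 fold change -0.22 and adjusted p = 0.00019 by edgeR).

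Of 26 tested genes among 29 of other fatty acid and glycerolipid synthesis, 5 were called higher and 4 lower, with a median log2 fold change of 0.03. With total-count scaling 7 were called higher and 2 lower, and among genes with a mean count of at least 50 the split was 7 and 4. Me1, malic enzyme, which supplies NADPH for fatty acid synthesis, averaged 384 ± 2.51 CPM in M-LPS-EV libraries and 342 ± 2.74 CPM in M-EV libraries (SD, n = 3 each; log2 fold change 0.17 and adjusted p = 3.1e-07 by edgeR). It was higher, in contrast to the 8 members. Dgat2, which makes triglyceride, was also higher (log2 fold change 0.40 and adjusted p = 2.6e-06 by edgeR), as was Hacd2, a dehydratase of fatty acid elongation (0.35, adjusted p = 6.7e-05). Mid1ip1, which promotes the polymer form of acetyl-CoA carboxylase, was lower, at 50.2 ± 1.03 CPM in M-LPS-EV libraries and 61.0 ± 1.36 CPM in M-EV libraries (log2 fold change -0.28 and adjusted p = 2.2e-06 by edgeR).

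In the isoprenoid branch, 1 of 12 genes was called higher and 2 lower, with a median log2 fold change of -0.02. Nus1, a subunit of the enzyme that makes dolichol (log2 fold change -0.14 and adjusted p = 0.0018 by edgeR), and Zmpste24, which trims prenylated proteins (-0.14, adjusted p = 0.0044), were lower. Rabggta, which attaches geranylgeranyl groups to Rab proteins, was higher (0.21, adjusted p = 0.01). Of 17 tested genes among 18 of fatty acid oxidation, 4 were called higher and 2 lower, with a median of 0.07. The acyl-CoA dehydrogenases Acadl (0.24, adjusted p = 0.00039) and Acadm (0.23, adjusted p = 0.0029) were higher, while Hadhb, a subunit of the mitochondrial trifunctional protein, was lower (-0.17, adjusted p = 0.0007). With the length offset Nus1, Rabggta, Acadl and Acadm were no longer called (adjusted p = 0.4, 0.15, 0.08 and 0.34 in edgeR). The counts stand against 16.4% called higher and 15.2% lower among all tested genes.

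Exons of 4 called members overlap a gene on the opposite strand in the annotation: Hmgcs1 (Gm48342), Cyp51 (Akap9), Elovl6 (Gm35986) and Srebf1 (Rai1). The same holds for the uncalled Idi1 (Gm48574), Ggps1 (Arid4b), Fdft1 (Ctsb), Lss (4930483K19Rik) and Scap (5830462I19Rik). Of the Fdft1 windows 25.7% matched the opposite strand of other genes, and Ctsb held the most of them. The libraries keep strand, but the strand setting of the counting was not given, so reads of such partners may not be told apart. Exons of Fdps (Gm43738), Scd2 (Mir5114), Srebf1 (Mir6922) and Tm7sf2 (Vps51) overlap a gene on the same strand, where strand does not help.

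The label and other cell types were checked by markers. The 8 chondrocyte markers summed to 40285 to 41203 TPM in M-LPS-EV libraries, against 47552 to 48044 TPM in M-EV libraries, and 7 of the 8 were called lower. Among all tested genes 15.2% were called lower and 16.4% higher. The 10 macrophage markers summed to 45.0 to 50.5 TPM in M-LPS-EV libraries, against 34.9 to 36.7 TPM in M-EV libraries. Lyz2 alone stood at 31.3, 37.4 and 35.0 TPM in M-LPS-EV libraries, against 23.1, 24.2 and 25.7 TPM in M-EV libraries. Of 8 tested, 4 were called higher (Lyz2, Adgre1, Itgam and Cd14), and Cd68, Csf1r, Mrc1 and Tyrobp were not called. Ptprc and Fcgr1, under 1 TPM in every library, were not tested. The 10 adipocyte markers summed to 11.1 to 14.4 TPM in M-LPS-EV libraries, against 11.0 to 13.0 TPM in M-EV libraries, with 1 of 4 tested called higher and 1 lower, with Cfd, Lep and Cidec at 0 TPM and Adipoq, Plin1, Plin4 and Retn under 1 TPM. The 8 fibroblast markers summed to 1425 to 1440 TPM in M-LPS-EV libraries, against 1267 to 1273 TPM in M-EV libraries. Of these, 2 were called higher (Dcn and Lum) and 3 lower (Col1a1, Col1a2 and Thy1). Dcn averaged 712 and 520 TPM, and Col1a2 174.5 and 223 TPM, in M-LPS-EV and M-EV libraries. The 7 osteoblast markers summed to 81.1 to 87.5 TPM in M-LPS-EV libraries, against 85.5 to 96.8 TPM in M-EV libraries, with 2 of 6 tested called higher (Ibsp and Runx2) and 2 lower (Sp7 and Alpl). Endothelial markers reached at most 1.40 and 2.33 TPM and skeletal muscle markers 23.7 and 24.1 TPM in M-LPS-EV and M-EV libraries. The part of the chondrocyte, macrophage, fibroblast, adipocyte and osteoblast marker differences in the fatty acid and sterol values was not tested. In bulk RNA fewer cells of a type and less RNA per cell cannot be told apart. All libraries received vesicles from macrophages, and the part of the vesicles themselves in the macrophage marker values was not tested.

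**Figure D5:**
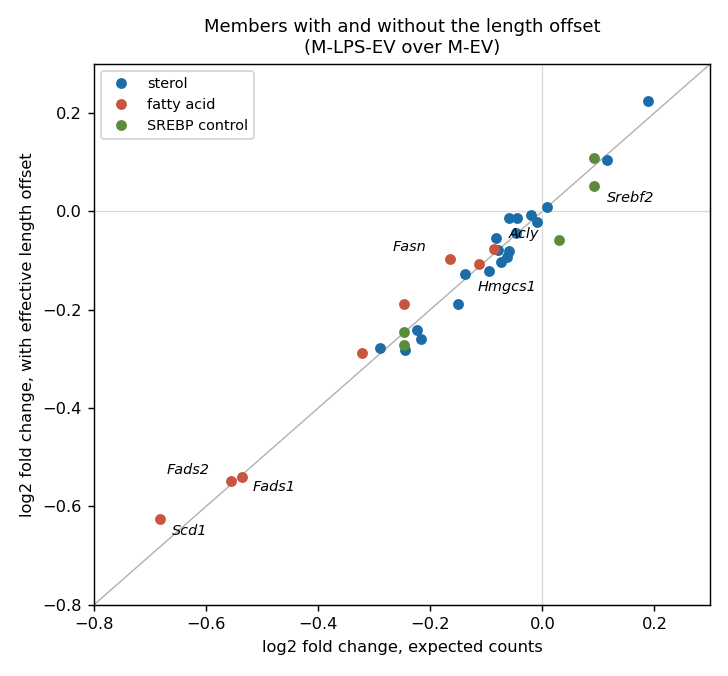
Log2 fold change (M-LPS-EV over M-EV) of the 33 genes from expected counts (x axis) against that with effective transcript length as an offset (y axis); the line marks equal values. Scd1, Fads1 and Fads2 remain the lowest. Fasn (-0.164 to -0.096) and Srebf2 (0.093 to 0.051) lie nearer to 0 with the offset. Acly (-0.086 to -0.076) and Hmgcs1 (-0.138 to -0.128) barely move.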

How the data were processed

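Expected counts, TPM and percent values of transcripts were analysed for 3 M-LPS-EV and 3 M-EV libraries, grouped by sample titles. The genome build was mm10 and the tools were STAR, RSEM and DESeq2, per the submitters' processing notes. Versions, annotation and strand setting were not given in the sources used here. The authors deposited an expected count for each transcript, estimated by RSEM. The TPM deposited beside it is scaled by effective length, per the file headers. The deposited percent column gives each transcript's share of its gene, per the file headers, and effective length is in bases.

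Expected counts were summed per gene, rounded, filtered with edgeR's filterByExpr (minimum count 10, minimum total 15), scaled by TMM and tested in edgeR 4.0.16 (glmQLFit and glmQLFTest, R 4.3.3) with group as the only term. Tests were two-sided and adjusted by Benjamini-Hochberg over all 14604 genes tested. Members and lists were chosen with earlier results of these data known. All 33 members were named, and up to 4 tested genes of each connected list with the smallest p. Not all of these are reported here. Coordinates come from GENCODE M21, 1-based. On simulated counts of 14396 genes for M-LPS-EV against M-EV the test called 26 of 49 genes at a log2 change of 0.25, 39 of 48 at 0.5, 48 of 50 at 1, 50 of 50 at 2 and 11 of 14199 with none. Alternatives were RLE, upper-quartile and total-count scaling, other count filters, a length offset, a replicate block, leaving out each library, DESeq2 1.42.0, limma 3.58.1 (voom, and trend on log2(TPM + 1) or log2(TPM + 0.1), log2 values computed from the deposited TPM) and a 1.2-fold minimum.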

Additional observations from a re-analysis of the deposited data

How the results depend on the processing

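None of the 17 called members changed sign under the 18 alternatives, and 13 kept their call in all but the 1.2-fold test. Hmgcs1, Acly, Fasn and Srebf2 lost it under the length offset and in TPM, Acly also with total counts or without M-LPS-EV or M-EV replicate 1, and Srebf2 also without M-EV replicate 2. Called fatty acid genes numbered 7 or 8 with a library left out and 6 with the offset or TPM. All genes called numbered 4614, but 2867 with the length offset, 2622 and 2619 on log2(TPM + 1) and log2(TPM + 0.1), and 1137 beyond 1.2-fold. Beyond 1.2-fold, 0 sterol, 3 fatty acid and 0 control genes were called (0 sterol and 0 control genes at an unadjusted p under 0.05 in glmTreat; the quasi-likelihood test, DESeq2 and limma-voom called 6 and 3), with 1 uptake gene, 1 other lipid synthesis gene, 0 isoprenoid and 0 oxidation genes. The length offset left 1 isoprenoid and 2 oxidation genes, and TPM left 5 other lipid synthesis, 1 isoprenoid and 3 oxidation genes. With a library left out all genes called numbered 3978 to 4317, sterol genes 6 to 7, control genes 2 to 3, uptake genes 7 to 9, other lipid synthesis genes 6 to 9, isoprenoid genes 2 to 4 and oxidation genes 5 to 6.

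Uncalled members that changed sign were Acat2 (0.003 with total counts, 0.010 without M-LPS-EV replicate 3, 0.008 without M-EV replicate 2; -0.048 to 0.010 over left-out libraries), Mvk (0.012 with total counts, 0.017 without M-LPS-EV replicate 3, 0.032 without M-EV replicate 3; -0.036 without M-EV replicate 1), Mvd (-0.006 with upper quartiles, -0.001 without M-LPS-EV replicate 1, -0.023 without M-EV replicate 1 or 3, -0.004 in TPM; up to 0.070 without M-EV replicate 2), Tm7sf2 (-0.148 to 0.061 over left-out libraries, the highest without M-LPS-EV replicate 1) and Scap (-0.059 with the offset, -0.070 and -0.072 in TPM). The Insig1-201 share turned to -0.0015 points from expected counts and ranged from -0.72 to 0.52 points with a library left out, with -0.33 without M-EV replicate 1. The Insig2-201 share ranged from -7.33 to 2.22 points, with 0.96 without M-EV replicate 3, the Acaca-201 share from -3.63 to -0.50 and the Srebf1-201 share from 3.38 to 6.63. The causes were not tested. Replicate numbers did not pair the libraries (correlation of same-numbered deviations -0.0438 to 0.0282). With a replicate block 4519 genes and 6 sterol, 8 fatty acid and 3 control genes were called.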
